A study of Zea mays with 2 samples.

Results

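The regions described here are the KN1 ChIP-seq peaks of maize whose summit, the base of highest signal, lay within the first 300 bp of an annotated gene, from the gene's first base (0 bp) to 300 bp inside it on the gene's strand. They were selected on summit position from peaks on the 10 chromosomes that the authors' table pairs with 1 gene only, that gene having a nuclear identifier and a length over 600 bp. Of 18824 peaks that met these conditions, called eligible peaks, 2630 (14.0%) had their summit in this stretch and are called start-region peaks. They make up 12.3% of all 21437 peaks in the table and lie in 2629 of the 12111 genes of eligible peaks. Position chose them, so their number at the gene start is a description. Tests were made on other measures, of which peak shape is measured from the same summit.

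The ChIP library came from leaf protoplasts (wall-less cells) of etiolated B73 seedlings, transfected with the p1107-KN1 plasmid, from which KN1 carrying a biotin ligase recognition peptide (BLRP) was overexpressed. The input library, of the same genotype, cell type and transfection, gives the background. There was 1 library of each kind, so no value has a replicate error, and the intervals and tests below cover the counting of peaks in 1 pair of libraries, where neighbouring peaks are not independent. A control library lacking the tagged protein was not analysed here. The binding described is that of an overexpressed, tagged protein in leaf cells.

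KN1 is a homeodomain protein of the KNOX class and keeps cells of the shoot meristem undetermined. In maize it is normally made in the meristem and stem and absent from leaf blades, and dominant mutants that express it in leaves form the knots that gave the gene its name. KNOX proteins bind DNA with partners of the BELL class, and a known maize target is the gene ga2ox1, whose enzyme inactivates gibberellin and which KN1 binds within an intron. The beginning of a gene usually holds the 5' untranslated region and the beginning of the first exon, beside the core promoter where RNA polymerase II is assembled. Exon positions and DNA sequence were not analysed here, and genes are named by identifier, since 0 of the identifiers in the table occur in the RefSeq gene table.

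Summits were not spread evenly over the first 300 bp. The start-region summits had a median position of 81 bp inside the gene (quartiles 42 and 133 bp). In 10-bp steps, each of the 10 bins between 0 and 99 bp held 145 to 174 summits, with the highest count at 60 to 69 bp. Counts then dropped to 123 at 100 to 109 bp, 87 at 140 to 149 bp, 42 at 190 to 199 bp and 13 at 290 to 299 bp. Grouped more broadly, 1614 summits (61.4%) lay at 0 to 100 bp, 808 (30.7%) over 100 and up to 200 bp and 208 (7.91%) over 200 and up to 300 bp. The density of 16.5 summits per bp at 50 to 99 bp compares with 14.2 per bp in the last 50 bp before the gene start and with 1.70 per bp at 250 to 299 bp. The next 300 bp into the gene, over 300 and up to 600 bp, held 441 eligible summits.

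**Figure D1:**
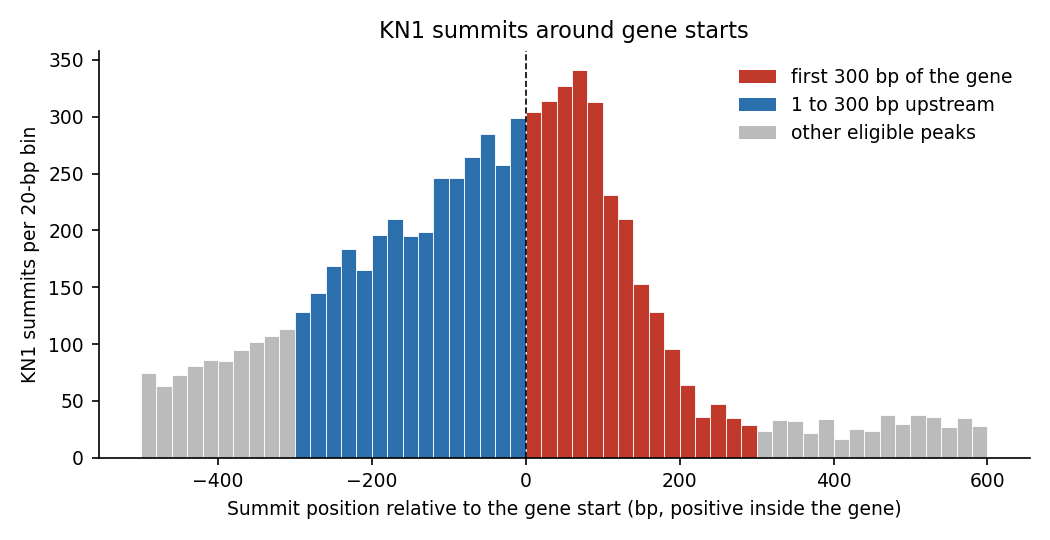
Number of KN1 summits per 20-bp bin against position relative to the gene start, with start-region peaks in red, summits 1 to 300 bp upstream in blue and other eligible peaks in grey; the 2 start-region summits at exactly 300 bp fall in a grey bin. Counts are highest at 60 to 79 bp inside the gene, with 341 summits, and reach 29 at 280 to 299 bp, whereas the upstream side declines over a longer distance.

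Most start-region peaks reached across the gene start. The peak began before the first base of the gene in 2302 of 2630 cases (87.5%, exact Clopper-Pearson 95% interval 86.2 to 88.8%), by a median of 122 bp (quartiles 73 and 191 bp) and at most 1446 bp. The other 328 peaks (12.5%) lay wholly inside the gene. Their median width was 269 bp and their median fold 4.91, against 412 bp and a fold of 8.41 for peaks that crossed the start. Peak width and the distance of the summit from the gene start enter this split by construction. Crossing was not particular to this group. Of the 3190 eligible peaks with a summit up to 300 bp upstream of the gene, 2678 (83.9%) also reached the gene start. Among start-region peaks the share that crossed the start was 98.5% for summits at 0 to 100 bp. It was 78.8% over 100 and up to 200 bp and 36.5% over 200 and up to 300 bp. The median distance from summit to upstream peak edge did not fall across these classes, at 191, 195 and 204 bp. The lower shares thus go with the greater distance of the summit from the gene start, by which the classes were formed. In 4 start-region peaks the peak also reached the end of the gene.

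Fold enrichment, the authors' value at the summit, was lower in start-region peaks than in peaks just before the gene. The deposited folds equal the ChIP pileup plus 1, divided by the input plus 1, so they are smaller than the plain ratio of the 2 levels. The median fold of start-region peaks was 7.71 (quartiles 5.32 and 13.7, lowest 2.99, highest 80.3), against 9.47 (5.96 and 18.2, lowest 2.74, highest 97.1) for the 3190 eligible peaks with a summit 1 to 300 bp upstream. The median ChIP pileup, the number of overlapping reads at the summit, was 21 in start-region peaks and 26 in upstream peaks. Of all eligible peaks, 50% exceeded their median fold of 9.30. Of the start-region peaks, 1058 (40.2%, 38.3 to 42.1%) did so, compared with 1597 upstream peaks (50.1%, 48.3 to 51.8%), with an odds ratio of 0.67 (95% interval 0.60 to 0.75, two-sided Fisher's exact test, adjusted p = 1.91e-13 over 11 tests). At 20-fold and above stood 375 start-region peaks (14.3%, 12.9 to 15.7%) and 707 upstream peaks (22.2%, 20.7 to 23.6%), with 21.9% of all eligible peaks at that level. Among the 100 eligible peaks of highest fold, 3 were start-region peaks and 10 were upstream peaks. A further 6 had summits more than 300 bp inside the gene, and 81 lay in none of these 3 groups. Of all 18824 eligible peaks, 2630 (14.0%) were start-region peaks, 3190 were upstream peaks and 9001 lay in none of the 3 groups.

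The direction was the same on every chromosome. Median fold of start-region peaks ran from 7.01 on chromosome 9 to 8.06 on chromosomes 3 and 7, and was below that of upstream peaks on 10 of 10 chromosomes. The upstream medians ran from 8.41 on chromosome 10 to 10.5 on chromosome 3. Against the 4003 interior peaks, whose summits lay more than 300 bp inside the gene, the difference did not pass the test. The interior median was also 7.71, and 1638 of the interior peaks (40.9%, 39.4 to 42.5%) exceeded 9.30, giving an odds ratio of 0.97 (0.88 to 1.08, by Fisher's exact test, adjusted p = 0.592).

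Within the region the median fold was lower in bins farther from the gene start. In 50-bp steps it was 8.06, 7.71, 7.71, 7.01, 6.66 and 6.31. In the 6 bins before the gene start, taken towards it from 300 bp upstream, it was 10.2, 10.5, 10.2, 9.82, 8.76 and 8.06. Within the start-region peaks, 809 of 1614 with summits at 0 to 100 bp (50.1%) exceeded their own median of 7.71, against 84 of 208 over 200 and up to 300 bp (40.4%), so that the odds ratio came to 1.48 (1.10 to 2.02, by Fisher's exact test, adjusted p = 0.0154). The call was lost among genes over 2000 bp, where the odds ratio was 1.32 (Fisher's exact test, adjusted p = 0.132), and in genes of 3000 to 6000 bp, where it was 1.00. With peak centres in place of summits the odds ratio was 0.79 (Fisher's exact test, adjusted p = 0.0935), on the other side of 1. At a −log10 q of at least 10 it was 0.68 (Fisher's exact test, adjusted p = 0.106). Among peaks of 400 to 600 bp it was 1.25 (Fisher's exact test, adjusted p = 0.609). These last settings also select on fold. Of 9 alternatives, 4 kept direction and call, 3 lost the call and 2 reversed the direction.

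**Figure D2:**
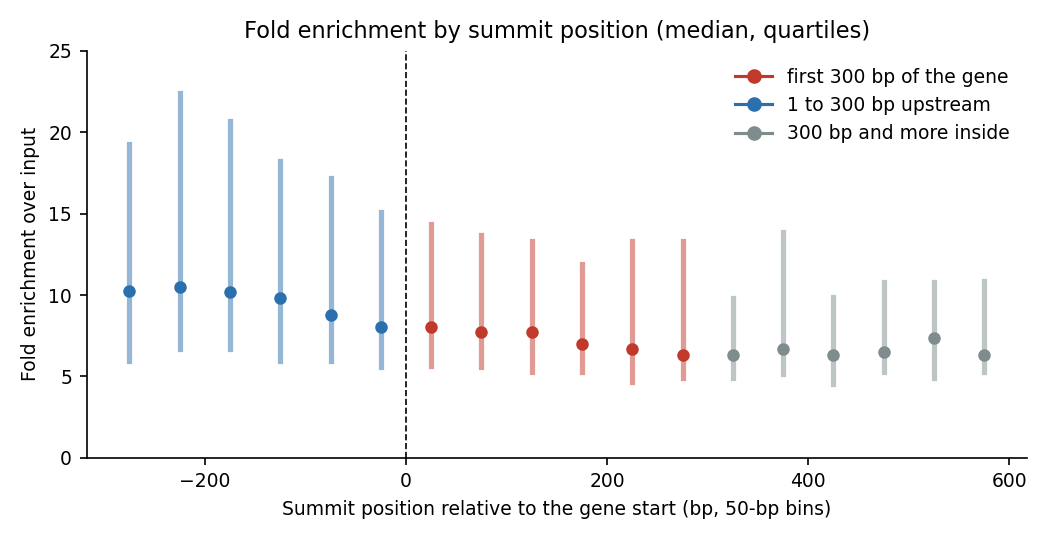
Median fold enrichment over input (points) and its quartiles (bars) in 50-bp bins of summit position, upstream peaks in blue, start-region peaks in red and summits 300 bp and more inside the gene in grey. The median is 10.2 at 300 to 251 bp upstream, 8.06 at 0 to 49 bp inside and 6.31 at 250 to 299 bp, and the quartile ranges of all bins overlap.

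Start-region peaks were also narrower. They measured 387 bp in the median (quartiles 294 and 524 bp), against 452 bp for upstream peaks and 421 bp for interior peaks. Wider than the eligible median of 452 bp, a level exceeded by 50% of eligible peaks, were 983 start-region peaks (37.4%, 35.5 to 39.3%), against 1591 upstream peaks (49.9%, 48.1 to 51.6%; odds ratio 0.60, 0.54 to 0.67; Fisher's exact test, adjusted p = 6.55e-21). Against interior peaks, of which 1795 (44.8%, 43.3 to 46.4%) were wider, the odds ratio was 0.73 (0.66 to 0.81, Fisher's exact test, adjusted p = 3.57e-09). The share of start-region peaks above the median width was the lower on 10 of 10 chromosomes in the comparison with upstream peaks. At the shortest width in the table, 229 bp, stood 146 start-region peaks (5.55%), compared with 3.45% of upstream peaks.

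The fold contrasts were also read within ranges of peak width. Peaks of higher fold are called wider, so a range of widths also selects on fold, and whether width accounts for the contrasts was not tested. Among peaks of 400 to 600 bp, 50.5% of 826 start-region peaks exceeded the median of that subset, against 47.8% of upstream peaks, with the odds ratio at 1.11 (Fisher's exact test, adjusted p = 0.427), and the call was not made. In the same subset the share of interior peaks was 37.2%, and the odds ratio against them was 1.72 (Fisher's exact test, adjusted p = 3.72e-08), a difference that the whole set did not show. In 4 width classes with nearly equal numbers of eligible peaks, start-region peaks, upstream peaks and interior peaks each had a median fold of 5.26 at 229 to 322 bp. At 453 to 647 bp the medians were 14.0 for start-region peaks, 13.7 for upstream peaks and 11.2 for interior peaks. In the widest class, from 648 bp, they were 22.4 for start-region peaks, 26.6 for upstream peaks and 18.6 for interior peaks. That class held 309 start-region peaks (11.7%), compared with 720 upstream peaks (22.6%) and 900 interior peaks (22.5%).

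**Figure D3:**
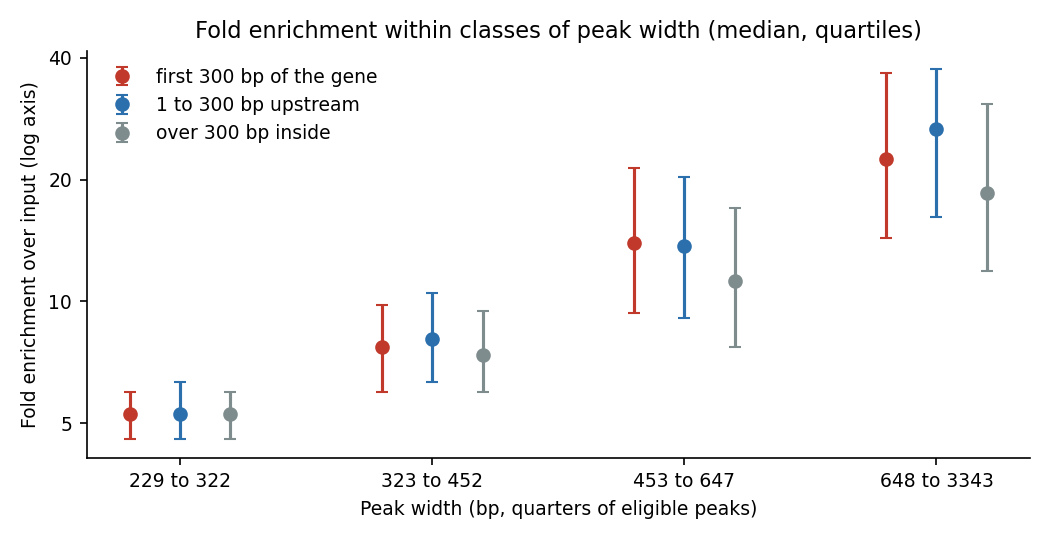
Median fold enrichment (points, log axis) and quartiles (bars) in 4 classes of peak width, for start-region peaks in red, upstream peaks in blue and interior peaks in grey. In the narrowest class the medians of the 3 groups coincide at 5.26, and in the widest they are 22.4 for start-region, 26.6 for upstream and 18.6 for interior peaks.

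The genes of start-region peaks were longer than those of upstream peaks. Their median length was 4384 bp (quartiles 2893 and 6811 bp), against 3032 bp (1591 and 5034 bp) for genes of upstream peaks. Genes of interior peaks lay between, with a median of 3807 bp (2350 and 5888 bp), and a difference from them was not tested. All 3 groups include only genes over 600 bp. Longer than the eligible median of 3219 bp, a length exceeded at 50% of eligible peaks, were the genes of 1835 start-region peaks (69.8%, 68.0 to 71.5%), against 1515 upstream peaks (47.5%, 45.7 to 49.2%). The odds ratio was 2.55 (2.29 to 2.85; Fisher's exact test, adjusted p = 2.24e-65), and the share was the higher on 10 of 10 chromosomes.

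Across 4 classes of gene length with nearly equal numbers of eligible peaks, the start-region share was higher in each longer class, while the upstream share was highest in the shortest and lowest in the longest. In genes of up to 1714 bp, 272 of 4707 peaks (5.78%, 5.13 to 6.48%) were start-region peaks and 893 (19.0%, 17.9 to 20.1%) were upstream peaks. In genes over 1714 and up to 3219 bp the start-region share was 11.1% and the upstream share 16.6%, and over 3219 and up to 5300 bp the start-region share was 17.9% and the upstream share 16.8%. In genes over 5300 bp, 995 of 4705 peaks (21.1%, 19.99 to 22.3%) were start-region peaks and 725 (15.4%, 14.4 to 16.5%) were upstream peaks. The number of start-region peaks per upstream peak thus went up from 0.30 in the shortest genes to 1.37 in the longest. Fold did not follow this order: the median fold of start-region peaks was 8.06 in the shortest genes, 8.41 in the next class and 7.36 in both longer ones. By summit position, in 50-bp steps from the gene start, the median gene length was 4001, 4598, 4680, 4541, 5033 and 4123 bp within the region, with no steady order. It was 3635 bp in the last 50 bp upstream and 2481 bp at 300 to 251 bp upstream.

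**Figure D4:**
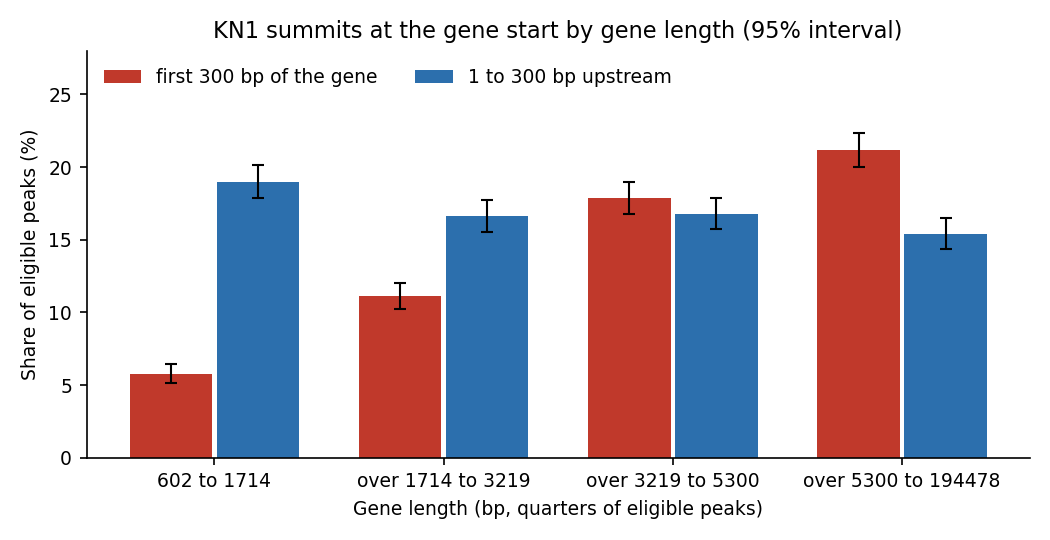
Share of eligible peaks that were start-region peaks (red) or upstream peaks (blue) in 4 classes of gene length, with exact 95% intervals from the counting of peaks. The red bars go up from 5.78% in genes of up to 1714 bp to 21.1% in genes over 5300 bp, and the blue bars go down from 19.0% to 15.4%.

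Start-region peaks were more often the only listed peak of their gene. At least 2 listed peaks were assigned to the genes of 901 start-region peaks (34.3%, 32.4 to 36.1%) and of 1440 upstream peaks (45.1%, 43.4 to 46.9%), so that the odds ratio came to 0.63 (0.57 to 0.71, by Fisher's exact test, adjusted p = 1.15e-16). Over all eligible peaks this share was 59.4%, since genes with many peaks count once for each peak. It ran opposite to gene length: among start-region peaks it was 44.1% in the shortest class of genes and 28.8% in the longest. The 1729 start-region peaks that stood alone had a median fold of 7.36, against 8.41 for those with company.

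The companion peaks were spread over the gene body and both sides of the gene, and many had a higher fold. In the 899 genes where a start-region peak had company outside the region, 1386 other peaks were listed, of which 486 (35.1%) lay over 300 bp inside the gene, 472 (34.1%) over 300 bp upstream and 421 (30.4%) downstream. Only 7 lay 1 to 300 bp upstream, and no companion summit was closer than 311 bp to the start-region summit, with a median of 2373 bp. Close companions are limited by construction, since each listed peak has 1 summit and is at least 229 bp wide. Most start-region peaks also crossed the gene start, and summits inside the region were not counted as companions. The start-region peak had the highest fold of its gene in 316 of 899 genes (35.2%, 32.0 to 38.4%), and the upstream peak in 617 of 1440 genes (42.8%, 40.3 to 45.4%). The more peaks a gene has, the less often any given peak is its highest. Genes with 3 or more listed peaks numbered 316 of the 899 and 579 of the 1440. The share for a peak picked at random was not computed. Set against single companions, the start-region peak had the higher fold in 252 of 486 pairs with a peak inside the gene (51.9%), in 184 of 472 with an upstream peak (39.0%) and in 156 of 421 with a downstream peak (37.1%). The median fold of these companions was 8.02 inside, 11.2 upstream and 11.2 downstream.

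The side of the longer peak flank differed with summit position. The longer of the 2 flanks lay on the gene-body side in 1345 start-region peaks and on the upstream side in 1256, with 29 ties, a share of 51.7% (49.8 to 53.6%) that did not pass a two-sided exact binomial test (adjusted p = 0.116). It did pass under 4 of 9 alternatives, with shares of 52.4 to 56.1% there. Of the upstream peaks, 1985 of 3171 (62.6%, 60.9 to 64.3%) had the longer flank towards the gene. In a test added after the values had been seen, the odds ratio between start-region and upstream peaks was 0.64 (0.58 to 0.71; Fisher's exact test, p = 9.67e-17). Within the region the share was 55.8% (53.3 to 58.2%) for summits at 0 to 100 bp, 47.0% (43.5 to 50.6%) over 100 and up to 200 bp and 38.3% (31.7 to 45.4%) over 200 and up to 300 bp. Between the outer classes the odds ratio was 2.02 (1.49 to 2.76; Fisher's exact test added after the values had been seen, p = 2.61e-06). In this region the longer flank lay more often on the gene-body side for summits before 100 bp. It lay more often towards the gene start for summits beyond 150 bp. Both flanks are measured from the summit that also places a peak in its group. A summit nearer 1 end of its peak changes flank and position together. The flank tests therefore cannot separate shape from position, and no conclusion is drawn from them. In bp, the median flanks of start-region peaks were 193 bp upstream and 195 bp on the gene-body side.

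**Figure D5:**
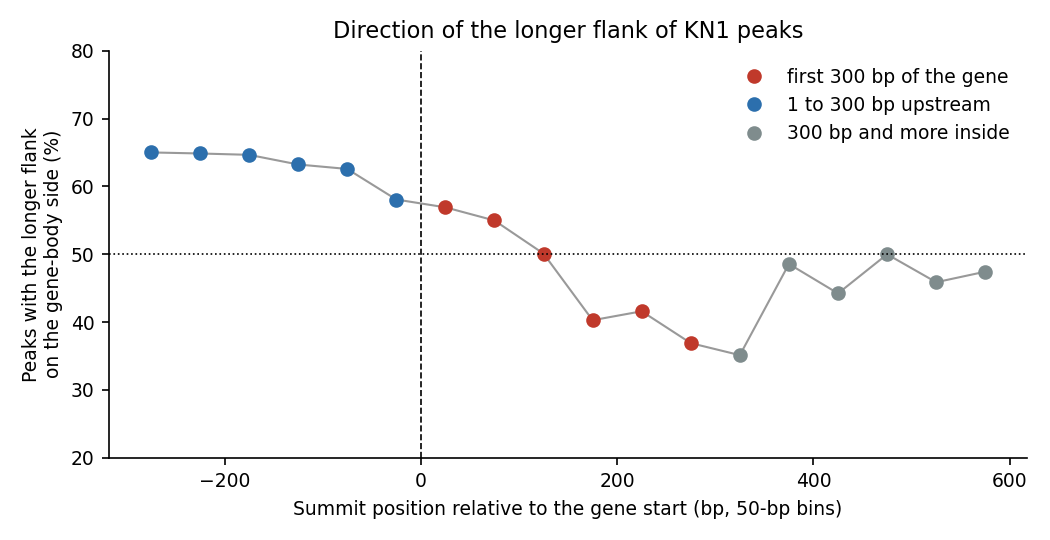
Share of peaks, without ties, whose longer flank lies on the gene-body side of the summit, in 50-bp bins of summit position; the dotted line marks 50%. The share is 65.0% at 300 to 251 bp upstream, 56.9% at 0 to 49 bp inside, 50.1% at 100 to 149 bp and 36.9% at 250 to 299 bp, and bins beyond 300 bp, each of 52 to 86 peaks, lie at 35.1% or above and none exceeds 50%.

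Input was raised at more of the start-region peaks. The background floor of the input, a pileup of 1.85 set by the peak caller, was exceeded at 316 start-region peaks (12.02%, 10.8 to 13.3%) and 290 upstream peaks (9.09%, 8.12 to 10.1%), with 8.03% over all eligible peaks. The odds ratio was 1.37 (1.15 to 1.62; Fisher's exact test, adjusted p = 5.32e-04), and the call was lost among peaks with a −log10 q of at least 10 (odds ratio 1.25, adjusted p = 0.0682) and in genes of 3000 to 6000 bp (1.30, adjusted p = 0.102). Within the region the share was 11.2% (9.72 to 12.9%) at 0 to 100 bp, 12.3% (10.1 to 14.7%) over 100 and up to 200 bp and 17.3% (12.4 to 23.1%) over 200 and up to 300 bp. Among peaks at the floor alone, the odds ratio for fold above the median against upstream peaks was 0.67 (Fisher's exact test, adjusted p = 3.07e-12). The input stayed low in absolute terms, at most 6.03 among start-region peaks.

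Neither strand nor the outer segments of the chromosomes gave a difference that passed its test. Genes on the plus strand held 1347 start-region peaks (51.2%, 49.3 to 53.1%), and genes on the minus strand 1283, a split that did not pass an exact binomial test against equal shares (adjusted p = 0.268). Start-region peaks made up between 12.1% (10.6 to 13.8%) of eligible peaks on chromosome 7 and 15.7% (13.8 to 17.6%) on chromosome 6. Each chromosome, taken up to the end of its last listed peak, was divided into 10 equal segments. In the first or the last one lay 941 start-region peaks (35.8%) and 1164 upstream peaks (36.5%), with 38.2% of all eligible peaks. The odds ratio was 0.97 (0.87 to 1.08, by Fisher's exact test, adjusted p = 0.592). The median fold of start-region peaks per segment ran from 6.55 in the sixth to 8.76 in the eighth. Start-region peaks lay at a median of 193 kb from the nearest other one, and 141 (5.36%) had another within 10 kb. These distances were not computed for other groups of peaks.

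The strongest start-region peak was at Zm00001d002382 on chromosome 2 (11626085 to 11630946, plus strand, AGPv4 by the identifiers), where a peak from 11625929 to 11626554 peaked 153 bp inside the gene. Its fold was 80.3, with a pileup of 228 reads over input at the floor and a −log10 q of 376. This gene had 3 further peaks, at 2902, 2038 and 1033 bp upstream, with folds of 43.8, 22.8 and 12.6, so the fold was highest at the gene start and lowest at the nearest upstream peak. Next came Zm00001d022241 on chromosome 7 (173464337 to 173466095, plus strand), with a summit 160 bp inside the gene, a fold of 77.5 and a wide peak of 1532 bp that covered most of the 1759-bp gene. Its companions, 779 bp upstream and 1992 bp past the start, beyond the gene end, had folds of 4.91 and 19.3.

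Zm00001d021846 on chromosome 7 (164385228 to 164417998, minus strand), a gene of 32771 bp, carried the next peak, with a summit at 73 bp and a fold of 75.4, and no other listed peak. Zm00001d041701 on chromosome 3 (133890497 to 133894351, minus strand) had its summit 7 bp from the gene start and a fold of 68.7. A fold of 67.3 was shared by Zm00001d015269 on chromosome 5 (summit at 61 bp), Zm00001d016792 on chromosome 5 (183 bp) and Zm00001d025685 on chromosome 10 (187 bp). The first 10 by fold were completed by Zm00001d038730 on chromosome 6 (13 bp) and Zm00001d047765 on chromosome 9 (49 bp), both at 66.96, and by Zm00001d014753 on chromosome 5 (188 bp) at 65.9. All of these had input at the floor, and 5 of the 10 were the only listed peak of their gene. Their summits ranged from 7 to 188 bp. The tenth place was a tie, since Zm00001d037035 on chromosome 6 (32 bp) and Zm00001d007038 on chromosome 2 (203 bp) also had a fold of 65.9. The summit of Zm00001d007038 lay in the last 100 bp of the region.

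On the remaining chromosomes the highest start-region folds were lower. They were 63.1 at Zm00001d031267 on chromosome 1 (184397570 to 184400001, plus strand; summit at 65 bp), 61.7 at Zm00001d008665 on chromosome 8 (16424145 to 16426175, plus strand; 34 bp) and 54.7 at Zm00001d051800 on chromosome 4 (169991500 to 169993249, plus strand; 130 bp). The widest start-region peaks were those of Zm00001d004524 on chromosome 2 (2256 bp, fold 51.2), Zm00001d006711 on chromosome 2 (2049 bp, fold 45.6) and Zm00001d039131 on chromosome 6 (2019 bp, fold 61.7). The peak at Zm00001d004524, from 116603967 to 116606222, spanned the whole gene of 891 bp.

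Genes with many peaks showed no fixed order of strength. The most peaks listed for a gene with a start-region peak was 6, reached at 10 genes, of which the 5 with the highest start-region fold are given. At Zm00001d014753 (61546176 to 61556400, plus strand) the start-region peak, at 65.9-fold, was the strongest, and its 5 companions, 2335 to 10599 bp past the start, had folds of 5.61 to 23.1. At Zm00001d043800 on chromosome 3 (210461398 to 210469715, plus strand) the start-region peak had a fold of 29.1 and a peak 1706 bp inside the gene had 39.3. The gene Zm00001d028744 on chromosome 1 had folds of 18.2 at its start and 39.96 at 4044 bp inside, and Zm00001d031441 on chromosome 1 had 11.9 at its start, next to 31.6 and 38.9 at 701 and 3925 bp upstream. At Zm00001d028167 on chromosome 1 the start-region fold was 11.6, and a peak 4410 bp past the start, beyond the gene end, had 18.2. In 4 of these 5 genes the start-region peak was therefore not the strongest. With 6 listed peaks in a gene, any given peak is more often not the strongest.

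Summits on the first base of the gene were found in 13 cases. The strongest was at Zm00001d043799 on chromosome 3 (210454354 to 210455724, plus strand), with a fold of 46.6, and this gene lies upstream of Zm00001d043800, named above, on the same strand. It was followed by Zm00001d011619 on chromosome 8 with 26.3 and Zm00001d036402 on chromosome 6 with 21.7. The only gene with 2 start-region peaks was Zm00001d038871 on chromosome 6 (166175556 to 166182507, plus strand), whose summits at 62 and 258 bp had folds of 4.56 and 4.21, each at the shortest width of 229 bp.

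At the 300-bp limit the summits nearest inside were those of Zm00001d042851 and Zm00001d051980, both at 300 bp with folds of 8.76 and 8.41, and Zm00001d053133 at 299 bp with 14.7. The nearest outside were Zm00001d034072 at 302 bp with 10.5, and Zm00001d022395 and Zm00001d008498, both at 306 bp, with 9.82 and 8.06. The weakest start-region peaks, at Zm00001d029603 on chromosome 1 and Zm00001d010480 on chromosome 8, had a fold of 2.99, with a pileup of 11 reads, a raised input of 3.02 and a −log10 q of 1.94. Zm00001d048076 on chromosome 9 followed with a fold of 3.08, where the pileup was 16 reads and the input 4.52. The highest input, 6.03 or 3.25 times the floor, was at Zm00001d048286 on chromosome 9, where the pileup was 23 reads and the fold 3.41. Next were Zm00001d017616 on chromosome 5 with an input of 5.53 and a fold of 3.52, Zm00001d041491 on chromosome 3 with 4.52 and 5.79, and Zm00001d013964 on chromosome 5 with 4.02 and 4.38.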

How the data were processed

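The authors deposited 1 table without a header, a row for each pair of peak and gene. Per the submitters' processing notes, fastp 0.21.0, Bowtie2 2.4.2, SAMtools 1.11 and MACS2 were used, and the genome build is not given in the sources used here. The gene identifiers are those of B73 AGPv4. The peak names, per the deposited table, include rmdup and 700 Mb as effective genome size. Fold is a linear ratio deposited by the authors for the summit, with 1 added to ChIP pileup and to input. The deposited −log10 q-value and, before it, −log10 p-value refer to the same base. The authors' score is derived from the q-value and was not used. The authors also deposited the summit offset, gene coordinates and distance.

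Peak coordinates were made 1-based. Of 475 chromosomal peaks listed with several genes, 82 had a summit in the first 300 bp of a gene over 600 bp and were left out, as were 85 of the 1823 single-gene peaks at shorter genes. ChIP pileup and input were solved from fold and p-value under the MACS2 formulas, with a largest relative error of 8.1e-06. Depth is not given in the table, and with 1 ChIP and 1 input library, intervals cover counting error only. Fisher's exact tests and exact binomial tests were adjusted by the Benjamini-Hochberg method over 11 tests with a threshold of 0.05, after checks on simulated data. Under each alternative setting the adjustment covered only the tests that could be computed there. The 2 added flank tests are given unadjusted, and both passed when adjusted over the pair. Alternatives changed the distance limit, gene length, q-value, input, summit or centre, width and gene multiplicity. Named genes are the 10 of highest fold, with those tied at the tenth place, and the highest per chromosome. Those at the extremes of fold, position, width, input and peak number are also named. The regions, lists and comparisons were chosen with earlier results of these data known. Computations used scipy 1.17.1, pandas 2.3.3 and numpy 2.4.6 under Python 3.11.15, with matplotlib 3.10.9 for figures.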

Additional observations from a re-analysis of the deposited data

How the results depend on the processing

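Of 106 recomputed tests under 10 settings, most kept direction and call. The share in genes with at least 2 peaks held in all 9, with odds ratios of 0.62 to 0.76. Numbers of start-region peaks were 1605 at a −log10 q of at least 10, 826 at widths of 400 to 600 bp, 1107 in genes of 3000 to 6000 bp and 1729 in genes with 1 listed peak, the last 2 being settings added after seeing the data. These follow from fewer peaks. At 400 to 600 bp the odds ratios were 1.11 for fold against upstream peaks, 1.72 for fold against interior peaks, 0.96 and 0.90 for width against the same groups, 1.25 for fold within the region and 1.07 for the outer segments, and the longer flank lay gene-ward in 56.1%. The width subset narrows the width contrasts by construction, and it and the q-value limit also select on fold, so neither bears on the fold contrasts alone. At a −log10 q of at least 10 the odds ratios were 1.25 for raised input and 0.68 for fold within the region, and the flank share was 53.9%. In genes over 2000 bp, fold within the region gave 1.32, the flank share was 52.4% and the plus-strand share 49.9%. In genes of 3000 to 6000 bp the odds ratios were 1.30 for raised input, 1.18 for gene length, narrowed by construction, and 1.00 for fold within the region, and the plus-strand share was 48.1%. The plus-strand share was 52.0% with a 500-bp limit (exact binomial test, adjusted p = 0.0413), the flank share 52.9% with a 200-bp limit, fold within the region 0.79 with peak centres and fold against interior peaks 1.01 in genes with 1 peak. Apart from settings named as narrowing by construction, the cause was not tested. With a 200-bp limit the contrast within the region, with peak centres the flanks, with input at the floor the raised input and in genes with 1 peak the share with several could not be computed. No paired analysis was possible because there is 1 library of each kind. Pileups of start-region peaks start at 9 reads. Their lowest fold, 2.99, came with a pileup of 11 reads and a raised input of 3.02.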
